A study of Mus musculus with 6 samples.

Results

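The genes described here are 9: Ccr7, S1pr1, Klf2, Il7r, Tcf7, Lef1, Foxo1, Satb1 and Cd69. All but Cd69, an early activation gene, belong to the naive and recirculating state of T cells. The 9 genes were chosen by name, and their rows were found by Ensembl identifier among the 52550 genes of the count table. Their 34 transcripts were found in the same way among the 131146 transcripts of the transcript table. All 9 genes passed the filter on low counts, which kept 14786 genes.

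RNA was sequenced from CD3+ T cells isolated magnetically from the spleens of WT mice and cultured with fetal bovine serum. All cells were stimulated for 24 h with anti-CD3/CD28 activator, so neither group holds resting cells. In 3 samples the cells were stimulated alone (TCR alone), and in the other 3 DMGV (dimethylguanidino valeric acid, a product of dimethylarginine breakdown) was present at 100 ng/ml (TCR+DMGV). The labels number the samples as biological replicates 1 to 3 in each group. They do not state whether a culture came from 1 mouse or from several. The study's text and legend for this experiment call the added compound LNY1, which is not another name for DMGV. The legend gives LNY1 at the same dose, 100 ng/ml. Where the study's legends state a dose of DMGV for cells, it is in µM. In the study LNY1 is the factor purified from fibroblast medium, equated with the dimethylarginines ADMA and SDMA, which AGXT2 turns into DMGV. Group names here follow the labels, and which compound was added cannot be settled from these data. Ages of the mice are not given in the labels of these samples.

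Naive T cells circulate between blood and lymphoid tissue. CCR7 guides them into lymph nodes, S1PR1 guides them out again, and interleukin 7 keeps them alive through IL7R. The transcription factors FOXO1 and KLF2 maintain transcription of the receptor genes, TCF1 (encoded by Tcf7) and LEF1 hold the naive program, and SATB1 organizes chromatin in T cells. Signals from the TCR switch off much of this set through AKT, which keeps FOXO1 out of the nucleus. CD69 appears early after stimulation, binds S1PR1 and removes it from the cell surface.

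The summed counts were 37758725 to 43718867 per sample, more than the reads per sample that the study's methods name. How the counts were derived from the reads is not stated. All 15 T cell markers were detected in every sample, with a summed level of 4704 to 5390 CPM (counts per library of equal size, by TMM) in TCR alone and 5187 to 5559 CPM in TCR+DMGV. The fitted log2 fold change was above 0 for all 15, with a median of 0.13, against 0.0024 over all genes tested, and 0 of the 15 passed the threshold. The T cell receptor gene Trbc1 had the smallest unadjusted p of this list (223 ± 19.7 against 260 ± 4.70 CPM, SD, n = 3 each). Of 10 neutrophil markers, 9 had no counts in any sample. B cell markers summed to 247 to 272 CPM in TCR alone and 247 to 257 CPM in TCR+DMGV, of which Ighm was 234 CPM or more in every sample. Macrophage and monocyte markers summed to 30.8 to 55.03 and 31.2 to 36.4 CPM, with Cd14 at 0 and Ly6c2 the largest at 17.8 to 40.8 CPM. Dendritic cell markers summed to 75.8 to 96.3 and 86.5 to 103 CPM, natural killer cell markers to 84.9 to 100.05 and 96.6 to 104 CPM, and endothelial markers to 38.4 to 44.9 and 42.02 to 44.1 CPM, with Siglech and Cdh5 at 0. The largest parts of these sums were, in the same order, Bst2 (58.8 to 85.1 CPM), Eomes (53.2 to 71.9 CPM) and Pecam1 (32.3 to 37.0 CPM). Erythroid markers summed to 4.59 to 5.12 CPM in TCR alone and 2.11 to 4.76 CPM in TCR+DMGV. The part of these markers in the values below was not tested, and in bulk RNA fewer cells of a type and less RNA per cell cannot be told apart.

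Scaled to length, the 9 genes spanned a wide range of levels after 24 h of stimulation. The chemokine receptor gene Ccr7 was at 236 ± 15.8 FPKM (fragments scaled to exon length and library size, SD over all 6 samples), followed by Tcf7 at 128 ± 9.80 FPKM and Satb1 at 40.03 ± 4.70 FPKM. At the other end, S1pr1 was at 1.61 ± 0.283 FPKM, below Klf2 at 4.91 ± 1.48 FPKM and Il7r at 6.11 ± 0.846 FPKM. Between them lay Cd69 at 21.4 ± 3.18, Lef1 at 13.3 ± 1.06 and Foxo1 at 11.7 ± 1.22 FPKM. The sample ranges overlapped between Lef1 and Foxo1 and between Il7r and Klf2, and every other pair of neighbours in this order was apart in all samples. S1PR1 and CCR7, the receptors for leaving and for entering lymph nodes, therefore had the lowest and the highest mRNA level of the 9 genes.

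This order depends on the length used. The deposited gene FPKM of Satb1, Cd69 and Lef1 divides by the exons of all transcripts together. Summed over the deposited transcript FPKM, an alternative added after the values were seen, Satb1 was 3.95 times, Cd69 4.14 times, Lef1 3.27 times and Tcf7 1.29 times as high as in the gene table, and the 5 genes with a single transcript were as before. Ccr7 was still first, Tcf7 at 166 ± 15.4 and Satb1 at 158 ± 33.2 FPKM overlapped, and Lef1 at 43.5 ± 5.70 FPKM lay above Foxo1 in every sample.

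**Figure D1:**
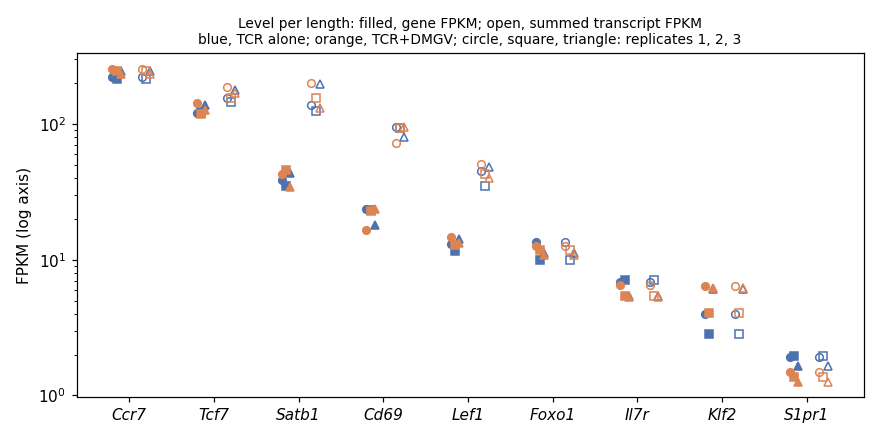
Level per length of the 9 genes in FPKM on a log axis, 1 point per sample, from the gene table (filled) and from the transcript table summed per gene (open), with TCR alone in blue, TCR+DMGV in orange and circle, square and triangle for replicates 1, 2 and 3. Ccr7 is highest and S1pr1 lowest on both scales, while Satb1, Cd69 and Lef1 sit higher on the summed transcript scale.

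The question of the comparison is whether the compound alters the levels of these genes in stimulated T cells. None of the 9 genes passed the threshold of 0.05 between the groups (edgeR quasi-likelihood test with Benjamini-Hochberg adjustment over all genes, smallest adjusted p = 0.999), where 2 of all tested genes did (0.0135%). S1pr1 was the 1 member with an unadjusted p under 0.05, a rule that 3.19% of all genes met. DESeq2 called 0 members. At an unadjusted p under 0.05 it gave 0, as did edgeR with the replicate block and in 5 of the 6 fits with 1 sample left out, and without TCR alone replicate 3 there were 3 of the 9, beside 1109 of all genes. Log2 fold changes were above 0 for 6 members and below 0 for 3, with a median of 0.05. The 3 were S1pr1, Il7r and Cd69. Because Cd69 is an activation gene, these counts do not give the direction of 1 program. For 1 of the 9 (11.1%) all samples of one group lay below all of the other, as they lay apart for 8.86% of all tested genes (lower in TCR+DMGV for 3.94%, higher for 4.92%). DESeq2 called 0.072% of the genes it tested.

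S1pr1 (ENSMUSG00000045092.8, GRCm38 chromosome 3, 115710433 to 115715072, reverse strand) encodes the receptor for sphingosine 1-phosphate through which T cells leave lymphoid organs. It was at 6.50, 6.79 and 5.51 CPM in TCR alone replicates 1, 2 and 3 and at 5.03, 4.78 and 4.42 CPM in TCR+DMGV replicates 1, 2 and 3. Every TCR+DMGV sample lay below every TCR alone sample, the 1 member without overlap. The means were 6.27 ± 0.672 and 4.74 ± 0.310 CPM (SD, n = 3 each). On the log2 scale the fitted difference was -0.40, with a standard error of 0.16 and a 95% interval from -0.77 to -0.04. The edgeR quasi-likelihood test gave an unadjusted p of 0.036 and an adjusted p of 0.999, and an exact permutation test gave p = 0.1, the smallest that 3 samples against 3 allow. These values rest on 175 to 277 counts per sample, and the log2 fold change was between -0.48 and -0.25 under every alternative tried.

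Ccr7 (ENSMUSG00000037944.8, chromosome 11, 99144196 to 99155077, reverse strand) stood among the most abundant mRNAs of these cells, above 98.2% of the tested genes in mean CPM. Its levels were 490, 485 and 532 CPM in TCR alone and 558, 554 and 529 CPM in TCR+DMGV. TCR alone replicate 3 lay just above TCR+DMGV replicate 3, so the groups overlapped by these samples alone. The log2 fold change was 0.12 (SE 0.07, 95% interval -0.04 to 0.29; exact permutation test, p = 0.2), the narrowest interval among the 9 genes.

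Il7r (ENSMUSG00000003882.4, chromosome 15, 9505788 to 9530176, reverse strand) encodes the alpha chain of the interleukin 7 receptor. It was at 24.7, 26.2 and 18.9 CPM in TCR alone and at 23.2, 19.9 and 19.5 CPM in TCR+DMGV. The lowest value of all, in TCR alone replicate 3, lay below all 3 TCR+DMGV samples. Il7r had a log2 fold change of -0.16 (SE 0.15, 95% interval -0.51 to 0.19; exact permutation test, p = 0.4), and leaving out TCR alone replicate 2 gave -0.065, TCR alone replicate 3 -0.28 and TCR+DMGV replicate 1 -0.24. Only 1 of the 4 transcripts of Il7r in GENCODE M21 is in the transcript table.

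Cd69 (ENSMUSG00000030156.5, chromosome 6, 129267325 to 129275436, reverse strand), the early activation antigen, was at 172, 172 and 129 CPM in TCR alone and at 119, 171 and 177 CPM in TCR+DMGV. In each group 1 sample was low, TCR alone replicate 3 and TCR+DMGV replicate 1, and the other 4 lay between 171 and 177 CPM. Cd69 had a log2 fold change of -0.02 (SE 0.18, 95% interval -0.44 to 0.40; exact permutation test, p = 0.8).

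Among the transcription factors, Klf2 (ENSMUSG00000055148.7, chromosome 8, 72319033 to 72321656, forward strand), an activator of S1pr1 transcription, varied most of the 9 genes, with a coefficient of variation of 29.5% over the 6 samples. It was at 8.27, 5.95 and 12.2 CPM in TCR alone and at 13.0, 8.50 and 13.1 CPM in TCR+DMGV, from 243 to 578 counts. The sample numbered 2 was the lowest in both groups, and the groups overlapped. The log2 fold change was 0.39 (SE 0.29), and its 95% interval from -0.30 to 1.07 was the widest of the 9. Leaving out TCR alone replicate 2 gave 0.16 and leaving out TCR alone replicate 3 gave 0.70. Klf2 and S1pr1 thus lay on opposite sides of 0 in the fit, although neither passed the threshold.

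Foxo1 (ENSMUSG00000044167.6, chromosome 3, 52268336 to 52353221, forward strand) was at 129.5, 99.7 and 107 CPM in TCR alone and at 121, 116 and 108 CPM in TCR+DMGV. The highest and the lowest value were both in TCR alone, and the TCR+DMGV samples lay between them. Foxo1 had a log2 fold change of 0.04 (SE 0.11, 95% interval -0.23 to 0.30). Gm20402, annotated on the other strand over the first exon of Foxo1, held 277 to 556 counts, 10.1% of those of Foxo1, and the counting is not stated to use strand.

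Tcf7 (ENSMUSG00000000782.15, chromosome 11, 52252371 to 52283014, reverse strand) was at 351, 370 and 396 CPM in TCR alone and at 414, 358 and 385 CPM in TCR+DMGV. Lef1 (ENSMUSG00000027985.14, chromosome 3, 131110471 to 131224356, forward strand) was at 129, 118 and 138 CPM in TCR alone and at 142, 129 and 135 CPM in TCR+DMGV. The samples of the groups were interleaved for both genes. Their log2 fold changes were 0.05 (SE 0.08, 95% interval -0.15 to 0.25) and 0.08 (SE 0.09, 95% interval -0.13 to 0.28).

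Satb1 (ENSMUSG00000023927.15, chromosome 17, 51736187 to 51833290, reverse strand) had the most counts of the 9 genes, 30017 to 42607 per sample. It was at 821, 757 and 909 CPM in TCR alone and at 902, 989 and 757 CPM in TCR+DMGV. Each group held 1 sample at 757 CPM, and the highest value was TCR+DMGV replicate 2. Satb1 had a log2 fold change of 0.09 (SE 0.12, 95% interval -0.18 to 0.37; exact permutation test, p = 0.6).

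**Figure D2:**
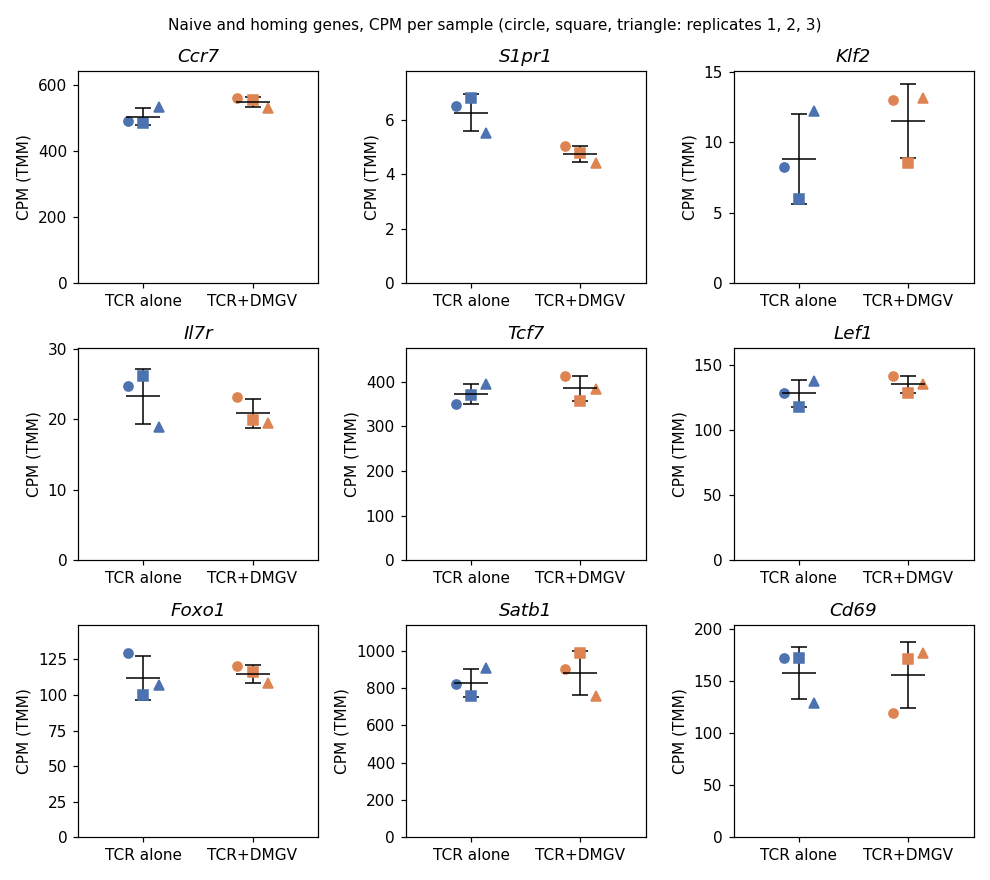
CPM (TMM-normalized) of each of the 9 genes in each sample, with 1 panel per gene, an axis from 0, circle, square and triangle for replicates 1, 2 and 3, and bars for the mean and SD of each group (n = 3). The groups are apart only for S1pr1, and Cd69 shows 1 low sample in each group.

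**Figure D3:**
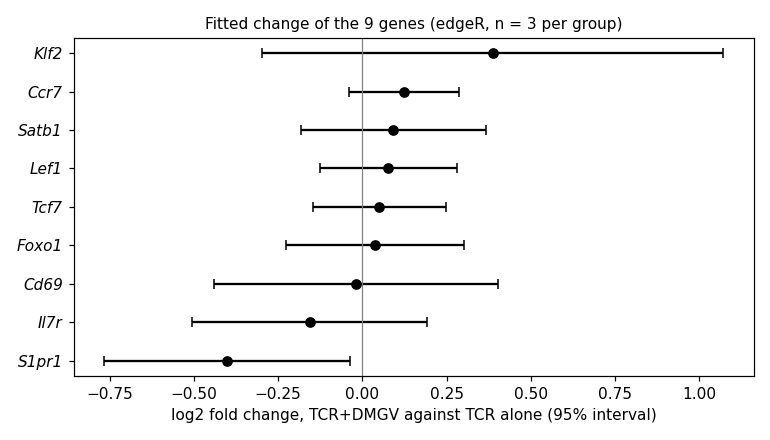
Fitted log2 fold change of TCR+DMGV against TCR alone for each of the 9 genes, with its 95% interval from edgeR (n = 3 per group) and a line at 0. The interval of S1pr1, from -0.77 to -0.04, lies below 0 without adjustment for the number of genes, and the other 8 intervals include 0.

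The transcript table divides the counts of Tcf7, Lef1, Satb1 and Cd69 among 29 transcripts, and Ccr7, S1pr1, Klf2, Il7r and Foxo1 have 1 each. Of the 34 transcripts, 26 passed the filter, and 0 passed the threshold (edgeR quasi-likelihood test, smallest adjusted p = 1.00), as did 0 of all 38401 transcripts tested (0.0%). At an unadjusted p under 0.05 there were also 0 of the 26, against 3.22% of all transcripts, and DESeq2 called 0. The groups did not overlap for 1 of the 26, S1pr1-201, against 9.25% of all transcripts. The values are estimates of which transcript a read came from, and for several genes they moved between samples far more than the gene totals did. Exons by which these transcripts differ are given from GENCODE M21 on GRCm38. In the first the capitals mark the start codon, and in the others the first and last 3 bases of the exon.
Lef1-203, first exon, chr3:131112797-131112820, forward strand: accttctctgtcccgATGgcaggg
Lef1, exon in Lef1-201 and Lef1-203, chr3:131191023-131191106, forward strand: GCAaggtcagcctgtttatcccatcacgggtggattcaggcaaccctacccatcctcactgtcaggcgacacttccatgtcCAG
Satb1-207, exon 11, chr17:51742047-51742142, reverse strand: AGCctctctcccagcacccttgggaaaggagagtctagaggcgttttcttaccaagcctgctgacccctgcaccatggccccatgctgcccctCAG
Cd69, exon 2, chr6:129271335-129271457, reverse strand: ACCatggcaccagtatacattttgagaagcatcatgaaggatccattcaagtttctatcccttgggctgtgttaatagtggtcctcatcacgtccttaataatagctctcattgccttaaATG

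Lef1 transcripts differ at their start and in an internal exon. Lef1-203 begins at the 24-base exon given first, inside the first intron of Lef1-201, and so lacks the first exon of Lef1-201 with its 207 coding bases; its open reading frame has 993 bases against 1191. That first exon carries the start of the domain by which LEF1 binds beta-catenin. Lef1-203 held 64.8%, 32.3% and 61.6% of Lef1 counts in the TCR alone samples and 64.3%, 58.0% and 28.9% in TCR+DMGV. In each group 1 sample was low, TCR alone replicate 2 and TCR+DMGV replicate 3. The mean shares were 52.9% ± 18.0 and 50.4% ± 18.9 (SD, n = 3 each; exact permutation test, p = 0.6).

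The 84-base exon of Lef1, which keeps the reading frame and is skipped in Lef1-202 and in 1 minor transcript, was in 89.1%, 72.5% and 83.8% of the counts of coding Lef1 transcripts in the TCR alone samples and in 89.0%, 86.6% and 70.5% in TCR+DMGV. The samples with the least inclusion were those with the least Lef1-203, but Lef1-203 itself includes the exon, so this match is largely built into the measure. Among transcripts from the upstream first exon alone, inclusion was 57.5% to 68.7%, with means of 61.8% ± 5.96 and 65.1% ± 5.79 (SD, n = 3 each; exact permutation test, p = 0.6). The lowest inclusion among these transcripts was in TCR alone replicate 3, a sample where Lef1-203 held 61.6% of Lef1 counts. Lef1-201 held 21.9% to 41.3% of the Lef1 counts and Lef1-202 6.07% to 20.7%.

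RefSeq gives a start near that of Lef1-203 as well. The 250 bases before it, on GRCm38.p6, were searched on both strands for CCACCC, a core of sites for Kruppel-like factors, for GTAAACA, a FOXO site, and for ATCAAAG, a TCF and LEF site. CCACCC was found at -77 and -57 (capitals), and 28.1% of 32851 promoter windows of this length hold it at least once. Neither of the other motifs, held by 3.17% and 3.21% of windows, was found in it or in any of the 14 windows that RefSeq gives for Foxo1, Lef1, Klf2, Tcf7, Il7r and Satb1. CCACCC was also in other windows of Lef1 and in windows of Klf2, Tcf7 and Satb1, and not in those of Foxo1 and Il7r. The matches describe the letters of these windows only. Ccr7, S1pr1 and Cd69 were not among the promoters used here.
Lef1, chr3:131112541-131112790, forward strand: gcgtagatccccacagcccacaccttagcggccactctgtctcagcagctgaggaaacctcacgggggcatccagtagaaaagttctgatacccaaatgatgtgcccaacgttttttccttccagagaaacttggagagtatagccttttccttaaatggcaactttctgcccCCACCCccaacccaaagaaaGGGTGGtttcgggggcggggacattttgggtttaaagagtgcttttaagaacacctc

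Tcf7 had 2 transcripts, which start at different first exons. In GENCODE M21 they share a start codon and 909 coding bases, so as annotated they do not differ in coding sequence. Coding sequence outside this annotation was not examined, and whether the shares reflect different protein forms was not tested. Tcf7-202 held 55.1%, 29.4% and 55.4% of Tcf7 counts in the TCR alone samples and 54.8%, 55.1% and 58.5% in TCR+DMGV. TCR alone replicate 2 was far from the other 5 samples, which lay within 54.8% to 58.5%. The exact permutation test of the share gave p = 0.5. Near the Tcf7 start lies A630014C17Rik, an antisense gene named here after its values were seen, with 39, 26 and 36 counts in the TCR alone samples and 80, 71 and 83 counts in the TCR+DMGV samples. It had no overlap, a log2 fold change of 1.13 (SE 0.29) and an adjusted p of 0.999 in the edgeR quasi-likelihood test, and it amounted to 0.357% of the Tcf7 counts.

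Satb1 counts moved between 3 transcripts. Satb1-208 held 74.2%, 69.5% and 35.5% in TCR alone and 33.5%, 16.6% and 60.4% in TCR+DMGV. Satb1-207, whose 96-base coding exon is given above, held 14.3%, 13.3% and 53.7% in TCR alone and 55.2%, 1.81% and 18.8% in TCR+DMGV. It was highest in TCR alone replicate 3 and TCR+DMGV replicate 1, the samples in which Cd69 was low. Satb1-211, which shares the inner end of its first exon with Satb1-207 and lacks the 96-base exon, held 1.73% to 2.97% in 5 samples and 77.4% in TCR+DMGV replicate 2, where 32979 of 42607 counts were given to it.

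With 3 samples against 3, the exact permutation test of a share cannot give a p under 0.1. The share of Satb1-208 was 59.7% ± 21.1 in TCR alone and 36.8% ± 22.1 in TCR+DMGV (SD, n = 3 each; exact permutation test, p = 0.2). Satb1-207 was at 27.1% ± 23.0 and 25.3% ± 27.3 (SD, n = 3 each; exact permutation test, p = 1). Together, Satb1-207 and Satb1-211 held 16.3%, 16.3% and 55.6% in TCR alone and 56.9%, 79.2% and 21.4% in TCR+DMGV (exact permutation test, p = 0.2). Satb1-213 held 2.73% to 14.6%. Satb1-208, Satb1-211 and Satb1-213 share 2292 coding bases. Satb1-207 has 2385, so its coding sequence differs from theirs in other bases besides the 96-base exon.

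Cd69 was mostly 1 transcript. Cd69-201 held 90.5% to 95.05% of the counts in all samples (92.9% ± 2.26 and 93.0% ± 1.54, SD, n = 3 each). Cd69-203, which skips the 123-base exon 2, held 2.41%, 2.95% and 7.13% in TCR alone and 6.85%, 3.30% and 2.50% in TCR+DMGV. It was highest where the gene total was lowest, in TCR alone replicate 3 and TCR+DMGV replicate 1.

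**Figure D4:**
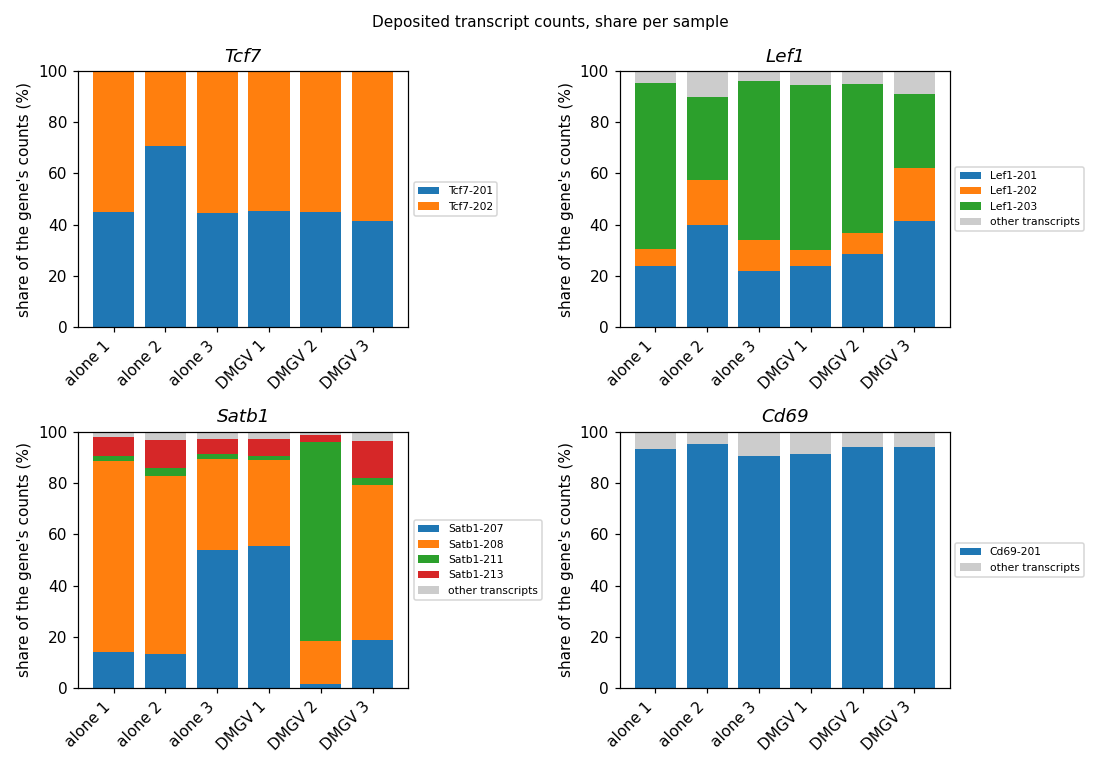
Share of each gene's deposited counts, in percent, given to each transcript of Tcf7, Lef1, Satb1 and Cd69 in each sample; transcripts under 10% in every sample are pooled in grey. Single samples stand apart: TCR alone replicate 2 for Tcf7, and TCR alone replicate 2 and TCR+DMGV replicate 3 for Lef1. For Satb1, Satb1-211 holds 77.4% in TCR+DMGV replicate 2. Satb1-207 holds 53.7% in TCR alone replicate 3 and 55.2% in TCR+DMGV replicate 1.

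TCR alone replicate 3 and TCR+DMGV replicate 1 also stood apart over all genes. On the first principal component of log2 CPM (32.2% of the variance) they scored -42.1 and -42.9, and the other 4 samples 10.5 to 34.9. In the same 2 samples, GC-rich genes were high relative to AT-rich genes: the median deviation of the 1808 genes of highest GC content exceeded that of the 1808 of lowest by 0.36 and 0.23 on the log2 scale, against -0.26 to -0.05 in the other 4. The members span this range, from Il7r at 40.5% GC and Cd69 at 41.5% to Klf2 at 61.6%.

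With a smooth GC trend removed from each sample, the deviation of Cd69 from its 6-sample mean shrank from 0.23 to 0.083 (root mean square, log2 scale), and its log2 fold change was 0.03 with a standard error of 0.08. That of Klf2 went from 0.42 to 0.36 and that of S1pr1 stayed at 0.22, with log2 fold changes of 0.36 (SE 0.25) and -0.41 (SE 0.15). The deviation of Il7r grew from 0.18 to 0.25, with a log2 fold change of -0.042, and that of Satb1 from 0.14 to 0.20. No member passed the threshold with this correction.

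**Figure D5:**
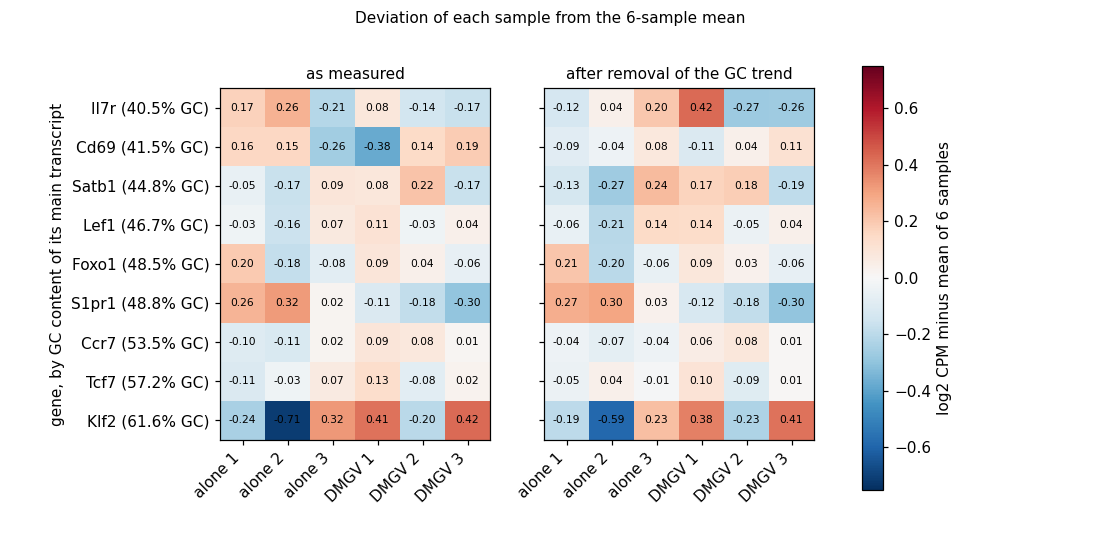
Deviation of each sample's log2 CPM from the 6-sample mean for the 9 genes, ordered by the GC content of the transcript with the most counts, as measured (left) and with the GC trend of each sample removed (right); red is above the mean and blue below. Cd69 is at -0.26 in TCR alone replicate 3 and -0.38 in TCR+DMGV replicate 1 on the left and at 0.08 and -0.11 on the right, while S1pr1 keeps its pattern.

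Over the 9 genes, no sample was high or low throughout. TCR alone replicate 2 held the lowest value of 5 members, which were Ccr7, Klf2, Lef1, Foxo1 and Satb1, and the highest of S1pr1 and Il7r. TCR+DMGV replicate 1 held the highest value of 3, which were Ccr7, Tcf7 and Lef1, and the lowest of Cd69.

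For each member, the gene with the most similar sample pattern among 9035 genes with a mean log2 CPM above 3 was found by the root mean square difference of the centred log2 CPM over the 6 samples. Atf4 was closest to Lef1 (0.013), Creb3 to Tcf7 (0.015), Map3k11 to Ccr7 (0.021), Vps13d to Foxo1 (0.022), Yrdc to Satb1 (0.031) and Dnajc15 to Cd69 (0.038). Anln was closest to Il7r (0.046), Zscan29 to S1pr1 (0.056) and Lime1 to Klf2 (0.11). The best match of Klf2 had the largest difference of the 9, but Klf2 also varied most (root mean square deviation 0.42), and the difference is not scaled to that spread.

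Genes that work with the members were taken from 8 written lists, of which 0 genes passed the edgeR threshold in either direction. Among 30 naive and quiescence genes, 18 had a log2 fold change above 0 and 12 below, with a median of 0.02. Bach2, a repressor that restrains effector differentiation, was at 222, 179 and 94.7 CPM in TCR alone and at 66.9, 68.8 and 94.4 CPM in TCR+DMGV. TCR alone replicate 3 was within 1 CPM of TCR+DMGV replicate 3, and the groups did not overlap by that margin. Bach2 was named for the smallest p of this list, where 3 of the 30 did not overlap, against 8.86% of all tested genes. The log2 fold change was -1.11 (SE 0.30), with an adjusted p of 0.999 in the edgeR quasi-likelihood test and 0.046 in DESeq2, which called 14 of all genes it tested (0.072%). Dgka, a brake on diacylglycerol signals, was at 211 ± 9.08 and 242 ± 9.26 CPM (SD, n = 3 each), and its log2 fold change was 0.20.

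Of 27 tested partners in homing and egress, 14 had a log2 fold change above 0 and 13 below, with a median of 0.0041. The chemokine receptor gene Cxcr4 was at 2.50, 2.99 and 2.92 CPM in TCR alone and at 4.90, 4.78 and 4.11 CPM in TCR+DMGV. It did not overlap between the groups, in the direction opposite to S1pr1, with a log2 fold change of 0.71 (SE 0.18, adjusted p = 0.999 from the edgeR quasi-likelihood test). Cxcr4 was named for the smallest p of this list, where 2 of the 27 did not overlap, against 8.86% of all tested genes. Gnai2, a G protein subunit through which these receptors signal, was at 238 ± 14.5 and 265 ± 21.8 CPM (SD, n = 3 each).

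Of 22 tested FOXO factors and regulators, 8 were above 0 and 14 below (median -0.06), and Pik3ca, the catalytic subunit of the kinase upstream of AKT, had the smallest p (69.1 ± 1.10 against 81.0 ± 4.20 CPM, SD, n = 3 each). Of 11 tested Kruppel-like factors, 3 were above 0 and 8 below (median -0.17), with Klf4 at 2.29 ± 0.520 and 1.66 ± 0.241 CPM, so the sign of Klf2 was that of the minority of its family. Of 18 genes of IL7R signalling, 10 were above 0 and 8 below (median 0.01), with the STAT5 target Cish at 79.3 ± 15.5 and 97.0 ± 16.7 CPM. Of 20 partners of TCF1 and LEF1, 10 were above and 10 below 0 (median -0.0043), with Tcf7l1 at 1.67 ± 0.329 and 2.30 ± 0.202 CPM. Of 13 SATB1 relatives and chromatin partners, 4 were above and 9 below 0 (median -0.03), with the remodeller gene Smarca4 at 338 ± 15.6 and 362 ± 14.1 CPM (SD, n = 3 each).

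As a measure of stimulation beside Cd69, 20 early activation genes had 11 log2 fold changes above 0 and 9 below, with a median of 0.06. Nr4a1, a direct target of TCR signals, was at 215, 208 and 245 CPM in TCR alone and at 302, 268 and 261 CPM in TCR+DMGV. It did not overlap between the groups and had a log2 fold change of 0.32 (SE 0.09, adjusted p = 0.999 from the edgeR quasi-likelihood test). Nr4a1 was named for the smallest p of this list, where it was the 1 of 20 without overlap, against 8.86% of all tested genes. Egr1 was at 114 ± 19.8 and 133 ± 5.47 CPM (SD, n = 3 each) and overlapped.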

How the data were processed

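The members and gene lists were chosen with earlier results of these data known. Per the study's methods, the authors used SOAPnuke 1.5.2 to filter reads, HISAT2 2.0.4 to map them and StringTie 1.2.3 for expression; libraries were made with an mRNA kit. The authors deposited whole-number counts per gene and transcript, not normalized, and FPKM values, scaled to length and library. The submitters' processing notes name mm9, but 99.7% of gene identifiers match GENCODE M21 (GRCm38), from which names, coordinates and exons were taken; promoters are from RefSeq (GRCm38.p6). No gene of the mitochondrial genome had a count.

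All genes were fitted with edgeR 4.0.16 (TMM, default filter, two-sided quasi-likelihood test, Benjamini-Hochberg adjustment) in R 4.3.3, and transcripts likewise. With n = 3 per group, p-values measure the spread between these samples, which may be technical. Shares were compared by two-sided exact permutation tests. Alternatives were DESeq2 1.42.0, other size factors and filters, limma 3.58.1 on log2(FPKM + 1) or log2(FPKM + 0.1), which understates changes of low genes, a replicate block, a GC correction (loess, span 0.3, on genes with mean log2 CPM above 3) and each sample left out. In simulated data of 14455 genes, edgeR recovered 44% of 200 whose log2 level was shifted by 1. With the deposited counts taken as read counts, all sample pairs differed by more than sampling noise (median chi-square per gene 3.89 or more). Named genes were the members, their transcripts with at least 10% of a gene's counts in any sample, the 1 or 2 genes of smallest p per list (of the marker lists, only that of T cells is given), and the gene most alike each member. Tables were read with pandas 2.3.3, and figures drawn with matplotlib 3.10.9.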

Additional observations from a re-analysis of the deposited data

How the results depend on the processing

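The count of members past the threshold was 0 under all 16 alternatives, and that of their transcripts under all 12. Over all genes it was 2, and it was 1 with library size alone, 14 with DESeq2, 1 without a filter, 0 with log2(FPKM + 1) or log2(FPKM + 0.1), 1 with the GC correction and 0 to 5 with 1 sample left out. With the replicate number as a block it was 0. Samples of the same number did not deviate together (correlations across genes of -0.15, 0.12 and -0.15), so the numbers were not taken to pair the samples, and with the block 0 members had an adjusted or unadjusted p under 0.05.

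With 1 sample left out, 1 to 4 members did not overlap between the groups, the most without TCR alone replicate 3. The share over all genes is not given for these sets, and 2 samples lie apart from 3 more easily than 3 from 3. Without that sample 1109 of all genes had an unadjusted p under 0.05 in edgeR, against 471 with all samples. The counts are therefore not read as a result about the members. With 1 sample left out, the log2 fold change of Klf2 ran from 0.16 to 0.70, that of Il7r from -0.28 to -0.065 (-0.042 with the GC correction), that of Satb1 from 0.0018 to 0.19 and that of Lef1 from 0.016 to 0.14. Directions that turned were those of Tcf7 (-0.0075 to 0.10), Foxo1 (-0.043 to 0.14) and Cd69 (-0.14 to 0.14, and 0.032 with the GC correction), none of them called. Among transcripts, Satb1-211 ran from -0.10 to 4.38 (the former without TCR+DMGV replicate 2), Satb1-207 from -1.58 to 1.01, Satb1-213 from -0.63 to 0.34, Lef1-201 from -0.037 to 0.45, Lef1-202 from -0.69 to 0.31 (-0.077 with the block), Lef1-203 from -0.31 to 0.26, Tcf7-201 from -0.39 to 0.0016 and Cd69-201 from -0.17 to 0.14. The difference in share of the main transcript ran from -12.9 to 8.22 percentage points for Lef1, -35.0 to -12.8 for Satb1, 0.91 to 13.9 for Tcf7 and -0.99 to 1.26 for Cd69 (-0.019 from FPKM). The cause was not tested. Among the alternative fold changes of the members, the named list genes and A630014C17Rik, 341 kept their direction and side of the threshold, 8 turned (Tcf7, Foxo1 and Cd69) and 1 passed it (Bach2 with DESeq2). Depth limits S1pr1 and Klf2 most, with 175 to 578 counts per sample.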
